A study of Danio rerio with 6 samples.

Results

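The genes described here are those of survivin, the mitotic checkpoint and the cyclins that drive mitosis: birc5a, birc5b, aurkb, incenp, mad2l1, mki67, ccna1, ccna2, ccnb1 and ccnb2. They were chosen by symbol, with results of the present comparison already known, among 32099 Ensembl genes in a table of 35218 features. A row was found for 9 of the 10 symbols. The symbol incenp was paired with no identifier in the name table used, and it is not analysed here. The identifier with the name BIRC5 was taken as birc5a, since the other survivin gene has the name birc5b. All 9 genes that were found passed the filter on low counts, birc5b only through the group where it was high, as given below.

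The study injected fertilized zebrafish eggs with a morpholino oligonucleotide (MO), a synthetic antisense molecule, made to block the translation of most fish N-terminal zinc finger (FiNZ) genes, abbreviated FZNFs. The 3 FZNF MO libraries and the 3 scrambled MO libraries, which came from embryos given a control MO of randomized sequence, were compared by poly(A) RNA-seq. Both groups were wild-type embryos of the Tübingen strain, received 4.5 ng of MO and were collected whole at shield stage, at 6 h, in pools. The study's methods repeat each pair of injections in triplicate, and the libraries were set here in 3 pairs by replicate number. Pairs 1 and 2 were collected on 12 May and pair 3 on 17 May. The sample labels do not state which libraries were injected together, so the matching within 12 May is an inference. An MO that blocks translation leaves the target transcript in place, so transcript counts do not measure the knockdown itself. Because each library is a pool of whole embryos, fewer cells of a type and less RNA per cell cannot be told apart.

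Total counts ran between 16306069 and 20567549 per FZNF MO library and between 17131612 and 19322041 per scrambled MO library. All 10 markers of the shield stage that were looked up were detected, and their summed level was 5564 to 6621 CPM, counts scaled to a common library size, with the FZNF MO and 5426 to 5949 CPM with the scrambled MO. Most of this sum was krt4, a keratin gene that is also among the enveloping layer markers. It had 3606, 3799 and 3627 CPM in FZNF MO replicates 1, 2 and 3, against 3741, 4111 and 3570 CPM in scrambled MO replicates 1, 2 and 3. The sum therefore says little of the other shield stage markers. Of the 10 markers, edgeR called 1, the ventral gene vent (log2 fold change 0.74, higher in 3 of 3 pairs, edgeR adjusted p = 0.00837), and 3 of the 10 were higher at an unadjusted p under 0.05. Over all tested Ensembl genes, 2.38% were called higher and 9.26% were higher at an unadjusted p under 0.05. The median log2 fold change of the 10 markers was 0.18, with 3 negative, beside -0.02 over all tested Ensembl genes. Of 4 measured markers of differentiated cells, 1 was at 0 in every library, and the 4 together reached 1.20 to 2.27 CPM with the FZNF MO and 1.20 to 1.58 CPM with the scrambled MO. None of the 5 enveloping layer, 4 yolk syncytial layer or 5 germ cell markers was called by edgeR or DESeq2, and none had an unadjusted p under 0.05 in edgeR.

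Survivin, Aurora B, INCENP and borealin form the chromosomal passenger complex, which corrects faulty attachments of chromosomes to the spindle and later helps to build the cleavage furrow. The spindle checkpoint holds back the anaphase-promoting complex until chromosomes are attached, and that complex then marks cyclins for destruction so that the cell can leave mitosis. The first divisions of a zebrafish embryo run on RNA and protein laid down in the egg. The embryo's own genome takes over at the blastula stage, before the shield stage sampled here. In zebrafish, birc5b and aurkb are known from maternal-effect mutants, and in the frog cyclin A1 is the form of the egg and early embryo whereas cyclin A2 is made later. These origins are background: no earlier stage was analysed here, so maternal and zygotic transcripts were not separated.

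Levels are given as CPM after TMM scaling, which corrects each library for its size and composition. A gene was called higher or lower where edgeR's quasi-likelihood test, with the pair as a block, gave a Benjamini-Hochberg adjusted p under 0.05 over all features together with a difference of 0.32 or more on the log2 scale, up or down. Of the 9 genes, 1 was called higher with the FZNF MO (ccna1) and 4 lower (birc5b, mad2l1, mki67 and ccnb2), while 4 were not called (birc5a, aurkb, ccna2 and ccnb1). Over all 15309 Ensembl genes tested, 2.38% were called higher and 2.28% lower, 4.66% in all, and over all features, FZNFs and repeats included, 5.45% were called. The genes were picked with this contrast in view, so their counts and fold changes are a description, and no significance is read from them. All 5 calls ended in the fit with no block, in that with the collection day as block and in that without pair 2.

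**Figure D1:**
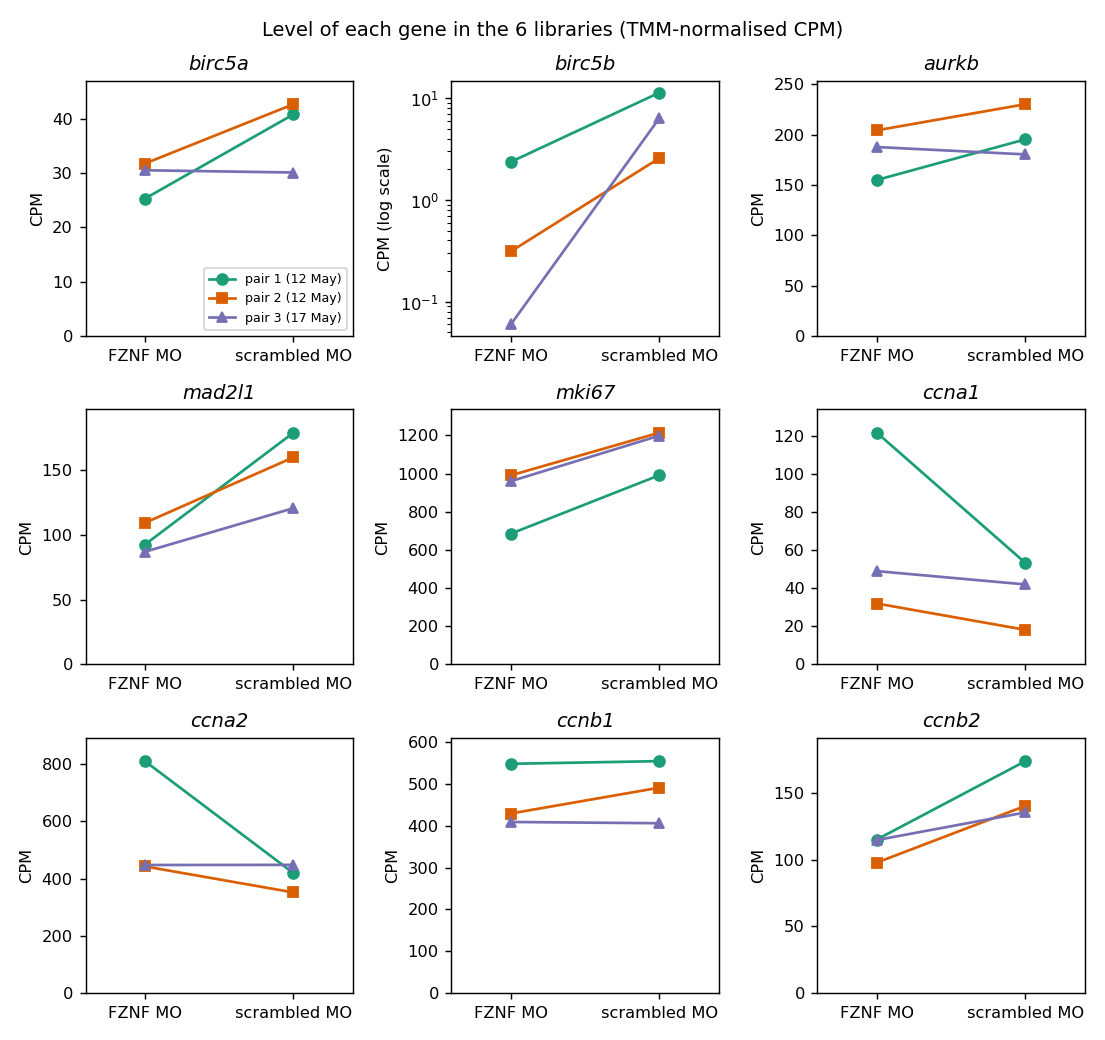
Level of each of the 9 genes in CPM, on a log axis for birc5b and on a linear axis for the others. FZNF MO libraries are on the left and scrambled MO libraries on the right, with a line joining each pair of injections. Both groups stand apart for birc5b, mad2l1, mki67 and ccnb2, with the FZNF MO libraries lower, and overlap for the other 5 genes.

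The survivin gene birc5b had 2.36, 0.312 and 0.0600 CPM in FZNF MO replicates 1, 2 and 3, against 11.3, 2.57 and 6.36 CPM in scrambled MO replicates 1, 2 and 3. Every FZNF MO library was lower than every scrambled MO library, although FZNF MO replicate 1 lay close to scrambled MO replicate 2. The mean was 0.912 ± 1.26 CPM with the FZNF MO and 6.75 ± 4.38 CPM with the scrambled MO (SD, n = 3 each), and the fitted log2 fold change was -3.31 (SE 0.59).

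The values of birc5b rest on few reads. It passed the filter on low counts only through the scrambled MO libraries, where it was higher, so its call is a description. Its raw counts were 49, 5 and 1 in FZNF MO replicates 1, 2 and 3, against 197, 49 and 111 in scrambled MO replicates 1, 2 and 3. The exact 95% Poisson interval of the level in FZNF MO replicate 3 ran from 0.00152 to 0.335 CPM, and that of scrambled MO replicate 3 from 5.23 to 7.66 CPM. These intervals cover counting error only. They did not overlap within any pair. In pair 1 they were 1.75 to 3.13 CPM with the FZNF MO and 9.78 to 13.0 CPM with the scrambled MO. In pair 2 they were 0.101 to 0.729 CPM and 1.90 to 3.40 CPM. Across pairs, the interval of FZNF MO replicate 1 overlapped that of scrambled MO replicate 2.

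Set within pairs, birc5b was lower with the FZNF MO in 3 of 3. The ratio of its level with the FZNF MO to that with the scrambled MO was 0.209 (95% interval 0.150 to 0.287) in pair 1 and 0.121 (0.0377 to 0.303) in pair 2. In pair 3 it was 0.00944 (0.000237 to 0.0537), with 1 count against 111. The interval of pair 3 lay below that of pair 1. The intervals take reads as independent draws, which need not hold where reads are shared out between paralogs. The gene was also chosen with the contrast known, so the intervals are a description and no test is read from them. Without pair 3 the fitted log2 fold change was -2.51, and without pair 1 it was -4.42.

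Its paralog birc5a had 25.3, 31.7 and 30.5 CPM in FZNF MO replicates 1, 2 and 3, against 40.8, 42.7 and 30.1 CPM in scrambled MO replicates 1, 2 and 3. The groups overlapped, since pair 3 held nearly the same level in both libraries. The log2 fold change was -0.37 (SE 0.17), with a mean of 29.2 ± 3.43 CPM with the FZNF MO and 37.8 ± 6.78 CPM with the scrambled MO (SD, n = 3 each), and birc5a was not called.

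The balance of the survivin paralogs was followed as the log2 ratio of their counts within a library, which needs no scaling between libraries. Transcript length was not corrected for, so the ratio says nothing of which paralog is more abundant, and a difference of ratios between libraries is what can be read. The log2 ratio of birc5b to birc5a, with 0.5 added to each count, was -3.41, -6.53 and -8.41 in FZNF MO replicates 1, 2 and 3, against -1.85, -4.04 and -2.24 in scrambled MO replicates 1, 2 and 3. The ratio was lower with the FZNF MO in every pair, by -1.56, -2.49 and -6.17 in pairs 1, 2 and 3 (mean -3.41 ± 2.44, SD, n = 3 pairs). Across pairs the groups overlapped, because scrambled MO replicate 2 had a lower ratio than FZNF MO replicate 1. Reads that could belong to either paralog may have been shared out in the counting, and how many there were was not tested.

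**Figure D2:**
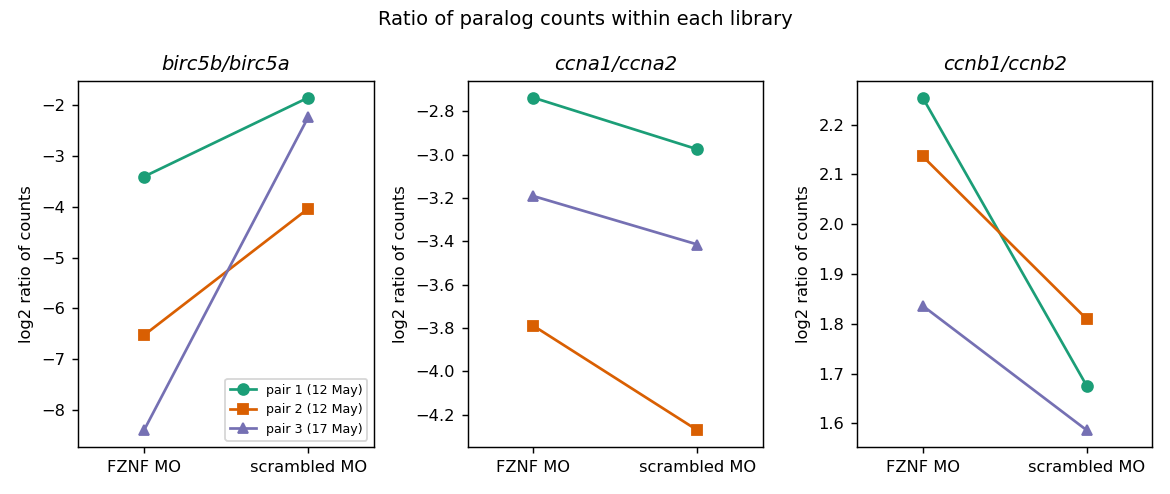
Log2 ratio of the counts of 2 paralogs in each library (vertical axis), for birc5b over birc5a, ccna1 over ccna2 and ccnb1 over ccnb2, with FZNF MO on the left, scrambled MO on the right and a line joining each pair of injections. The survivin ratio was lower with the FZNF MO in all 3 pairs, and the cyclin A and cyclin B ratios were higher in all 3, with groups that did not overlap for cyclin B alone.

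The gene aurkb, which encodes Aurora B, had 155, 204 and 188 CPM in FZNF MO replicates 1, 2 and 3, against 195, 230 and 180 CPM in scrambled MO replicates 1, 2 and 3. The groups overlapped, and aurkb was lower in pairs 1 and 2 and slightly higher in pair 3. Its log2 fold change was -0.15 (SE 0.11) and it was not called.

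The rest of the complex was covered by a list of 10 symbols, of which 9 were measured and tested. Among the 6 tested genes of that list other than birc5a, birc5b and aurkb, edgeR called none, with 0 higher and 1 lower at an unadjusted p under 0.05, which 9.26% of all tested Ensembl genes met in the higher direction and 9.89% in the lower. Their median log2 fold change was 0.03 beside -0.02 over all Ensembl genes. The 1 lower gene was cdca8, which encodes borealin. It had 165, 180 and 164 CPM in FZNF MO replicates 1, 2 and 3, against 235, 228 and 202 CPM in scrambled MO replicates 1, 2 and 3. Its groups stood apart, but at a log2 fold change of -0.39 (SE 0.10) the edgeR adjusted p of 0.0558 missed the threshold, while DESeq2 called it.

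Among inhibitor of apoptosis proteins, the family defined by the BIR domain to which survivin belongs, 5 genes were tested. The 1 called was birc5b, beside 2.28% of all tested Ensembl genes called lower. The 3 tested besides the survivins were not called by edgeR or DESeq2. In edgeR, 0 of the 3 were higher and 1 lower at an unadjusted p under 0.05, beside 9.26% and 9.89% of all tested Ensembl genes. The lower one, birc6, a large BIR protein with ubiquitin-conjugating activity, had 47.9, 31.9 and 37.9 CPM in FZNF MO replicates 1, 2 and 3, against 54.6, 55.2 and 54.0 CPM in scrambled MO replicates 1, 2 and 3 (log2 fold change -0.50, SE 0.15, edgeR adjusted p = 0.0842).

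The checkpoint gene mad2l1 encodes Mad2, which binds Cdc20 and so holds the anaphase-promoting complex inactive. It had 92.3, 109 and 86.8 CPM in FZNF MO replicates 1, 2 and 3, against 178, 159 and 120 CPM in scrambled MO replicates 1, 2 and 3. All FZNF MO libraries were below all scrambled MO libraries, and the within-pair log2 ratios were -0.95, -0.55 and -0.47 in pairs 1, 2 and 3. The mean was 96.0 ± 11.6 CPM with the FZNF MO and 153 ± 29.6 CPM with the scrambled MO (SD, n = 3 each), and the fitted log2 fold change was -0.66 (SE 0.12). Its call held without pair 1, at -0.51, and without pair 3, and it ended without pair 2 at -0.70.

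Of the other 14 spindle checkpoint genes tested, edgeR called none, and the median log2 fold change was -0.14. Without adjustment, 1 was higher and 2 lower at a p under 0.05 in edgeR, beside 9.26% and 9.89% of all tested Ensembl genes. Named here are a binding partner and the target of Mad2. The gene mad1l1, whose product recruits Mad2 to kinetochores, had 99.7, 37.9 and 58.4 CPM in FZNF MO replicates 1, 2 and 3, against 37.8, 26.6 and 49.7 CPM in scrambled MO replicates 1, 2 and 3 (log2 fold change 0.71, SE 0.20, edgeR adjusted p = 0.0602). It was above its partner library in 3 of 3 pairs, most in pair 1, with groups that overlapped. The target of the checkpoint, cdc20, had 225, 238 and 235 CPM in FZNF MO replicates 1, 2 and 3, against 310.0, 319 and 278 CPM in scrambled MO replicates 1, 2 and 3 (log2 fold change -0.38, SE 0.10, edgeR adjusted p = 0.0570). Its groups stood apart. DESeq2 called both genes, in these directions.

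The proliferation antigen gene mki67, whose product Ki-67 coats mitotic chromosomes, had 685, 990.4 and 960 CPM in FZNF MO replicates 1, 2 and 3, against 991, 1214 and 1198 CPM in scrambled MO replicates 1, 2 and 3. The highest FZNF MO library was within 1 CPM of the lowest scrambled MO library, so the groups stood apart only narrowly. Within pairs, mki67 was lower in 3 of 3, with log2 ratios of -0.53, -0.29 and -0.32. The mean was 878 ± 168 CPM with the FZNF MO and 1135 ± 124 CPM with the scrambled MO (SD, n = 3 each), and the fitted log2 fold change was -0.38 (SE 0.095). The call also ended with TMM factors from Ensembl genes alone (-0.35) and without pair 1 (-0.31).

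Among genes of proliferation and DNA replication, the list to which mki67 belongs, most values lay on the other side of 0. Of the 28 tested besides it, 4 had a negative log2 fold change, and their median was 0.15 beside -0.02 over all Ensembl genes. None of the 28 was called by edgeR or by DESeq2. In edgeR, 4 were higher and 1 lower at an unadjusted p under 0.05, beside 9.26% and 9.89% of all tested Ensembl genes. The gene mcm5, a subunit of the replicative helicase, had 378, 192 and 166 CPM in FZNF MO replicates 1, 2 and 3, against 302, 146 and 144 CPM in scrambled MO replicates 1, 2 and 3 (log2 fold change 0.31, SE 0.10, edgeR adjusted p = 0.113). It was above its partner library in every pair while the groups overlapped. The lower one, lin9, part of the complex that switches on late cell cycle genes, had 23.1, 29.7 and 30.1 CPM in FZNF MO replicates 1, 2 and 3, against 42.2, 39.7 and 35.7 CPM in scrambled MO replicates 1, 2 and 3 (log2 fold change -0.51, SE 0.17, edgeR adjusted p = 0.106).

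**Figure D3:**
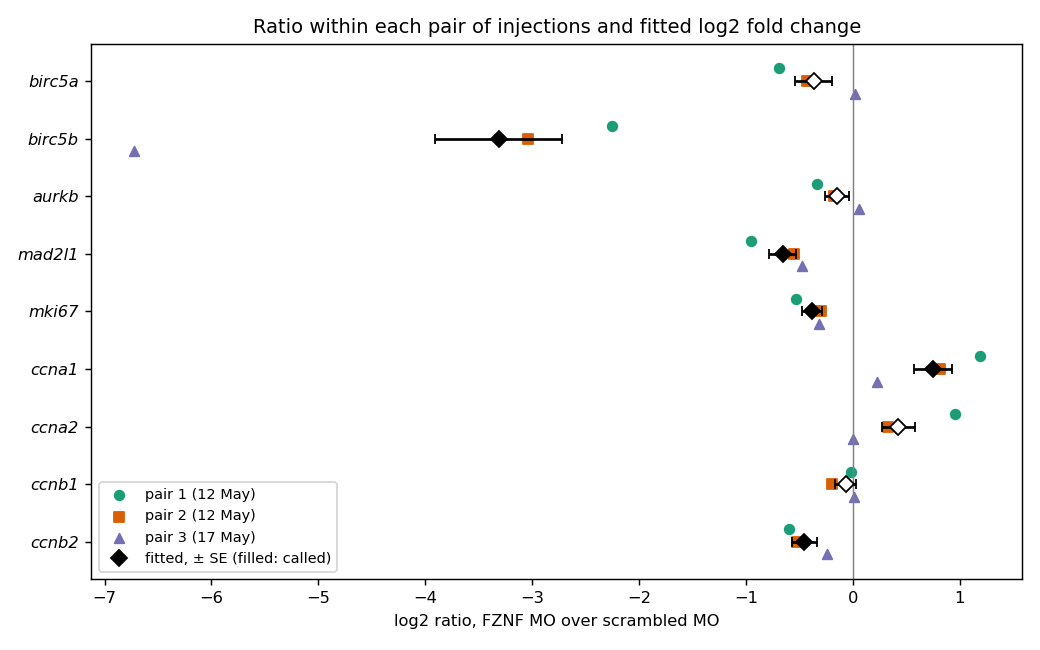
Log2 ratio of FZNF MO over scrambled MO in each pair of injections (circle, square and triangle for pairs 1, 2 and 3) and the fitted log2 fold change with its standard error (diamond, filled where called) for each of the 9 genes. The pairs lie within 0.71 of each other on the log2 scale for birc5a, aurkb, mad2l1, mki67, ccnb1 and ccnb2, and are spread more widely for birc5b, ccna1 and ccna2.

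The cyclins of type A, which partner Cdk2 and Cdk1 in S phase and at entry into mitosis, were the only described genes with their highest level in FZNF MO replicate 1. This trait is not particular to them. Other genes of the lists, among them mcm5, mad1l1, ccnd1 and ccne1, also had their highest level in that library, while others, such as cdc20, did not. The gene ccna1 had 122, 32.0 and 49.0 CPM in FZNF MO replicates 1, 2 and 3, against 53.3, 18.2 and 42.0 CPM in scrambled MO replicates 1, 2 and 3. The libraries of each group differed among themselves by 3.8-fold with the FZNF MO and 2.93-fold with the scrambled MO, so the groups overlapped. Inside each pair ccna1 was higher with the FZNF MO, with log2 ratios of 1.19, 0.82 and 0.22 in pairs 1, 2 and 3. The mean was 67.6 ± 47.6 CPM with the FZNF MO and 37.8 ± 17.9 CPM with the scrambled MO (SD, n = 3 each), and the fitted log2 fold change was 0.75 (SE 0.18).

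The gene ccna1 was called only with the pair as block and with both pair 1 and pair 2 kept. Without pair 1 its log2 fold change was 0.51 and the call ended, and in the fit with no block and without FZNF MO replicate 1 it was 0.10. Without pair 3, the pair with the smallest difference, it was 1.03 and the call held.

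The paralog ccna2 had 811, 443 and 448 CPM in FZNF MO replicates 1, 2 and 3, against 419, 352 and 448 CPM in scrambled MO replicates 1, 2 and 3. FZNF MO replicate 1 stood well above the other 5 libraries, and pair 3 had equal levels. The log2 fold change was 0.43 (SE 0.15) and ccna2 was not called, although it was called without pair 3 (0.66) and with no count filter (0.44).

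The cyclin A paralogs were set against each other in the same way. The log2 ratio of ccna1 to ccna2 counts was -2.74, -3.79 and -3.19 in FZNF MO replicates 1, 2 and 3, against -2.97, -4.27 and -3.41 in scrambled MO replicates 1, 2 and 3. The groups overlapped, and the ratio was higher with the FZNF MO by 0.24, 0.48 and 0.22 in pairs 1, 2 and 3 (mean 0.31 ± 0.15, SD, n = 3 pairs). The ratio differed more between pairs of injections than between the MOs within a pair.

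The cyclins of type B form with Cdk1 the kinase that drives entry into mitosis. The gene ccnb1 had 549, 429.7 and 409 CPM in FZNF MO replicates 1, 2 and 3, against 555, 492 and 406 CPM in scrambled MO replicates 1, 2 and 3. The groups overlapped, with log2 ratios of -0.017, -0.19 and 0.011 in pairs 1, 2 and 3. At a log2 fold change of -0.067 (SE 0.098) ccnb1 had the smallest difference of the 9 genes, and it was not called.

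Its paralog ccnb2 had 115, 97.7 and 115 CPM in FZNF MO replicates 1, 2 and 3, against 174, 140.2 and 135 CPM in scrambled MO replicates 1, 2 and 3. All FZNF MO libraries were below all scrambled MO libraries, with log2 ratios of -0.60, -0.52 and -0.24 in pairs 1, 2 and 3. The mean was 109 ± 9.88 CPM with the FZNF MO and 150 ± 20.9 CPM with the scrambled MO (SD, n = 3 each), and the fitted log2 fold change was -0.45 (SE 0.12). The call also ended with TMM factors from Ensembl genes alone (-0.42) and without pair 1 (-0.38).

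The cyclin B paralogs gave the only ratio whose groups stood apart, and they did so only narrowly. FZNF MO replicate 3, at 1.84, lay just above scrambled MO replicate 2, at 1.81. The log2 ratio of ccnb1 to ccnb2 counts was 2.25, 2.14 and 1.84 in FZNF MO replicates 1, 2 and 3, against 1.68, 1.81 and 1.59 in scrambled MO replicates 1, 2 and 3. Every FZNF MO library was above every scrambled MO library, by 0.58, 0.33 and 0.25 within pairs 1, 2 and 3 (mean 0.39 ± 0.17, SD, n = 3 pairs).

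Of 8 further cyclin genes tested, edgeR called none. At an unadjusted p under 0.05, 3 were higher and 0 lower, beside 9.26% and 9.89% of all tested Ensembl genes. DESeq2 called 2, with no share of its calls over all genes given here. The groups stood apart for 3 of the 8, all higher (ccnd1, ccne1 and ccnd3), beside 7.51% of all tested Ensembl genes, and overlapped for the other cyclin E gene, ccne2 (log2 fold change -0.040). The gene ccnd1 had 1549, 1215 and 1174 CPM in FZNF MO replicates 1, 2 and 3, against 1128, 986 and 996 CPM in scrambled MO replicates 1, 2 and 3 (log2 fold change 0.33, SE 0.092, edgeR adjusted p = 0.0598). The gene ccne1 had 253, 186 and 198 CPM in FZNF MO replicates 1, 2 and 3, against 176, 149.8 and 161 CPM in scrambled MO replicates 1, 2 and 3 (log2 fold change 0.38, SE 0.11, edgeR adjusted p = 0.0629). Both were called by DESeq2, and in both FZNF MO replicate 1 was the highest library.

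Set side by side, the groups did not overlap for 4 of the 9 genes, all of them lower, beside 9.08% of all tested Ensembl genes that were lower and 7.51% that were higher without overlap. The same direction in 3 of 3 pairs was seen for 4 lower genes and 1 higher gene, beside 22.8% of Ensembl genes lower and 19.6% higher. The median log2 fold change of the 9 genes was -0.37, and that of all tested Ensembl genes was -0.02. These figures follow from the choice of the genes and carry no test.

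The wider machinery of the cell cycle was read from 10 lists of pathway genes, which held 144 measured genes besides those above. Of the 141 that were tested, edgeR called 0 higher and 5 lower, or 3.55% lower, beside 2.28% of all Ensembl genes. At an unadjusted p under 0.05, 11 were higher and 20 lower, beside 9.26% and 9.89% of all tested Ensembl genes. DESeq2 called 4 higher and 7 lower, with no share of its calls over all genes given here to set beside them. The median log2 fold change was -0.04. The summed level of the 144 genes was 18673, 17337 and 16482 CPM in FZNF MO replicates 1, 2 and 3, against 18723, 17584 and 17128 CPM in scrambled MO replicates 1, 2 and 3. The groups overlapped in this sum.

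The 5 lower genes were wee2, ncapd2, cdc23, ube2c and cdkn1ca. The gene wee2 encodes the oocyte form of the Wee1 kinase, which inhibits Cdk1, and fell most. It had 46.3, 20.2 and 28.6 CPM in FZNF MO replicates 1, 2 and 3, against 113, 80.5 and 99.1 CPM in scrambled MO replicates 1, 2 and 3 (log2 fold change -1.69, SE 0.16, edgeR adjusted p = 8.70e-05). Every FZNF MO library was below every scrambled MO library. The call held with no block and without each pair in turn, and ended with the collection day as block at -1.62. With no block and 1 library left out it held without FZNF MO replicate 1 and ended in the other 5 such fits, at -1.37 to -1.73. Of the 18 tested mitotic kinase and phosphatase genes besides aurkb, wee2 was the 1 that edgeR called. At an unadjusted p under 0.05, 0 of the 18 were higher and 7 lower, beside 9.26% and 9.89% of all tested Ensembl genes. The groups stood apart for 4 of the 18, or 22.2%, all lower, beside 9.08%. The median log2 fold change of the 18 was -0.14.

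The condensin subunit gene ncapd2 had 131, 142 and 198 CPM in FZNF MO replicates 1, 2 and 3, against 276, 246 and 254 CPM in scrambled MO replicates 1, 2 and 3 (log2 fold change -0.74, SE 0.13, edgeR adjusted p = 0.00751). The groups stood apart. The other 20 kinetochore and condensin genes tested were not called by edgeR. Among them mis12, which encodes a kinetochore protein, had 51.9, 39.5 and 56.1 CPM in FZNF MO replicates 1, 2 and 3, against 37.1, 31.5 and 32.7 CPM in scrambled MO replicates 1, 2 and 3 (log2 fold change 0.53, SE 0.15, edgeR adjusted p = 0.0614), and DESeq2 called it higher.

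Of 20 tested genes of the anaphase-promoting complex and mitotic exit, edgeR called 2 lower, or 10%, beside 2.28% of all tested Ensembl genes. DESeq2 called 3 lower, cdc20 among them, with no share of its calls over all genes given here. Of the 20, 13 had a negative log2 fold change, with no such share over all genes given here. Their median was -0.09, beside -0.02 over all tested Ensembl genes. At an unadjusted p under 0.05 in edgeR, 1 was higher and 4 lower, beside 9.26% and 9.89% of all tested Ensembl genes. The subunit gene cdc23 had 32.8, 36.7 and 40.4 CPM in FZNF MO replicates 1, 2 and 3, against 49.0, 51.1 and 59.9 CPM in scrambled MO replicates 1, 2 and 3 (log2 fold change -0.54, SE 0.14, edgeR adjusted p = 0.0389). The gene ube2c, whose product passes ubiquitin to substrates of the complex, had 109, 159 and 122 CPM in FZNF MO replicates 1, 2 and 3, against 183, 212 and 143 CPM in scrambled MO replicates 1, 2 and 3 (log2 fold change -0.46, SE 0.12, edgeR adjusted p = 0.0471). The groups stood apart for cdc23 and overlapped for ube2c. Among 11 tested genes of cell cycle inhibitors and p53 targets, 9 had a negative log2 fold change, and the median was -0.04. Of the 11, edgeR called none higher and 1 lower, or 9.09%, beside 2.28% of all tested Ensembl genes. The 1 lower gene was cdkn1ca, which encodes a Cdk inhibitor of the p57 type. It had 71.1, 56.4 and 60.2 CPM in FZNF MO replicates 1, 2 and 3, against 87.3, 99.0 and 85.9 CPM in scrambled MO replicates 1, 2 and 3 (log2 fold change -0.54, SE 0.13, edgeR adjusted p = 0.0368). The calls of ncapd2, cdc23, ube2c and cdkn1ca ended with no block, with the collection day as block and without pair 2. Those of cdc23 and ube2c also ended without pair 1 (-0.52 and -0.32) and with TMM factors from Ensembl genes alone (-0.51 and -0.43), and that of ube2c with RLE factors (-0.45).

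None of the 15 tested genes of spindle motors and cytokinesis was called by edgeR or DESeq2. In edgeR, 0 were higher and 2 lower at an unadjusted p under 0.05, beside 9.26% and 9.89% of all tested Ensembl genes. The log2 fold changes of the 15 ran from -0.27 to 0.02, with a median of -0.12 beside -0.02 over all tested Ensembl genes. No share of negative values over all genes is given here. Of the 15, 13 were negative. Of these, anln, which encodes the furrow protein anillin, had 177, 185 and 178 CPM in FZNF MO replicates 1, 2 and 3, against 219, 223 and 200.3 CPM in scrambled MO replicates 1, 2 and 3 (log2 fold change -0.25, SE 0.10, edgeR adjusted p = 0.203).

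**Figure D4:**
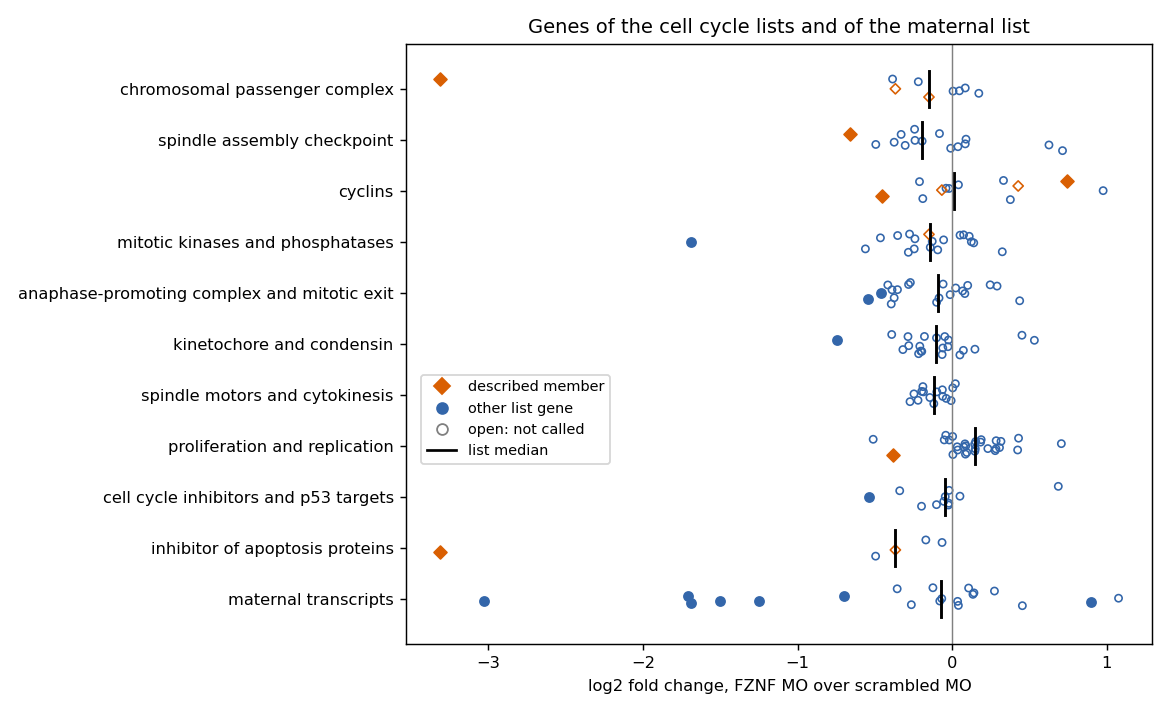
Fitted log2 fold change of FZNF MO over scrambled MO for each tested gene of the 10 cell cycle lists and of the list of maternal transcripts (1 row per list, a gene may stand in several), with the described genes as diamonds, the others as circles, open symbols where not called and a line at the list median. Medians lie between -0.37 and 0.15, and birc5b at -3.31 is the lowest point, followed by gdf3 at -3.03, dazl at -1.71 and wee2 at -1.69.

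Some transcripts known from the egg were also called. In a list of known maternal transcripts, which also holds wee2, 20 genes were tested, of which 6 were called lower, or 30.0%, and 1 higher, beside 2.28% of all Ensembl genes lower and 2.38% higher. The list was chosen with earlier results of these data known, so its count is a description. The summed level of its 21 measured genes was 532, 260.1 and 371 CPM in FZNF MO replicates 1, 2 and 3, against 846, 611 and 805 CPM in scrambled MO replicates 1, 2 and 3. The absence of overlap in this sum rested on gdf3. Without that gene, a choice made after its values were seen, the sum was 470.4, 239 and 335 CPM in FZNF MO replicates 1, 2 and 3, against 587, 313 and 465 CPM in scrambled MO replicates 1, 2 and 3, lower in 3 of 3 pairs with groups that overlapped. The gene gdf3, a maternal ligand of the TGF-beta family, fell to 61.7, 21.1 and 36.0 CPM in FZNF MO replicates 1, 2 and 3, against 258, 297 and 340.0 CPM in scrambled MO replicates 1, 2 and 3 (log2 fold change -3.03, SE 0.26, edgeR adjusted p = 4.96e-05). The germ plasm gene dazl (-1.71), btg4 (-1.50), zgc:113424 (-1.25) and the maternal linker histone gene h1m (-0.70) were also lower on the log2 scale, and the egg coat gene zp2.1 was higher (0.90). The groups overlapped for btg4, zgc:113424 and h1m. Without overlap, 3 of the 20 were lower (15%) and 1 higher (5%), beside 9.08% and 7.51% of all tested Ensembl genes. Apart from wee2, these calls are not given here with no block or with pairs left out. The list median was -0.07, since 9 of the 20 were positive. The part of maternal transcripts in the level of birc5b was not tested.

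Over the 6 libraries, the genes whose log2 CPM was most like that of birc5b, among 9534 with a plain symbol and a mean count of at least 50, were NKX6-1 (Pearson r = 0.992), TMEM168 (0.982), alg11 (0.978), tstd1 (0.975) and eif5b (0.974). None of these was called. Among the described genes, the r with birc5b was 0.80 for ccnb2, 0.71 for mad2l1, 0.56 for ccnb1 and 0.33 for birc5a. It was 0.17 for mki67, 0.094 for ccna1, -0.0057 for ccna2 and -0.075 for aurkb. Those most like ccna1 were PAQR3 (0.997), cabin1 (0.991), gpat2 (0.989), shprh (0.988) and fntb (0.988), also not called, and each had its highest level in FZNF MO replicate 1. For ccna2 the r with ccna1 was 0.905, and for aurkb it was -0.951. It was -0.87 for mki67 and -0.72 for birc5a, and between -0.49 (mad2l1) and 0.38 (ccnb1) for the rest. The points share their libraries and pairs of injections, 6 libraries are few for such a ranking, and the r values are a description.

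**Figure D5:**
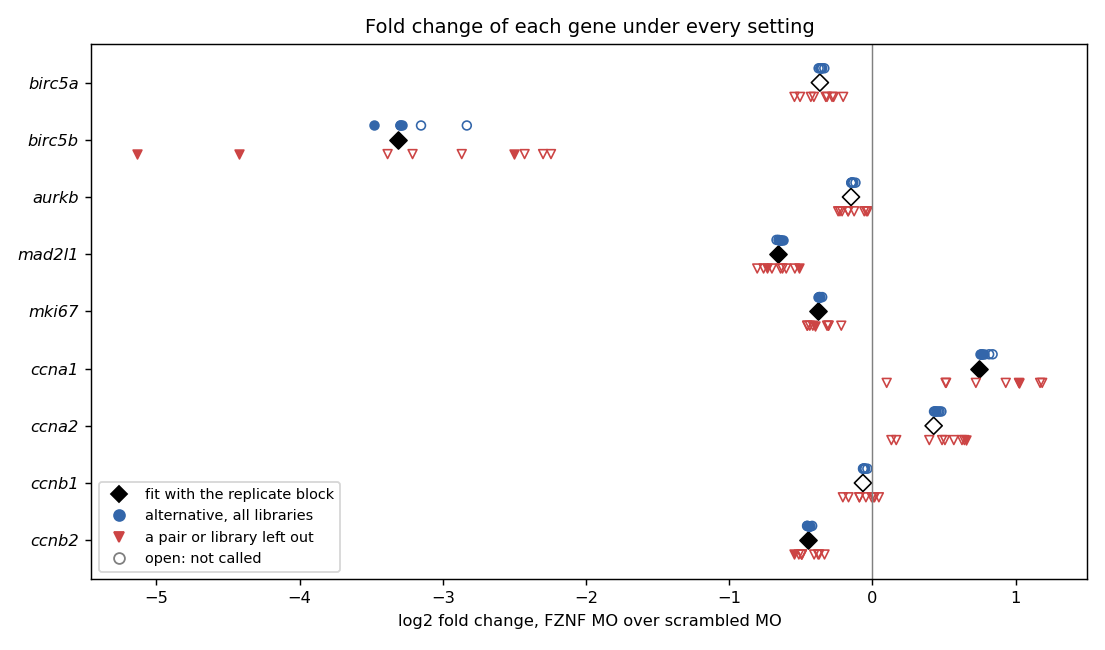
Log2 fold change of FZNF MO over scrambled MO for each of the 9 genes in the fit with the replicate block (diamond), in the alternatives that keep all libraries (circles) and with a pair or a library left out (triangles), filled where called. Directions hold for every gene but ccnb1, which lies near 0, while birc5b runs from -5.14 to -2.24 and ccna1 from 0.099 to 1.18 as libraries are left out.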

How the data were processed

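Poly(A) RNA was sequenced from 6 libraries, 3 per group. After a quality check in FastQC 0.11.9, the authors aligned reads against GRCz11 in STAR 2.7.5a, keeping multimapping reads, and counted them with TEcount over Ensembl genes, FZNF models and repeat families. The values deposited are raw counts per feature and were used unchanged. Neither the Ensembl release nor the strand setting of the counting is given in the sources used here, so reads of overlapping genes or close copies may be shared. Symbols were taken from a table of gene names (28845 of 32099 Ensembl identifiers matched, and 198 of 222 list symbols), and RefSeq's GRCz12tu table served only for letter case.

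The test was edgeR 4.0.16 (R 4.3.3) on all features: filterByExpr by condition, TMM factors, the quasi-likelihood test with replicate number and condition as terms, and Benjamini-Hochberg adjustment over 17804 features, of which 971 (5.45%) were called. The SE is the size of the log2 fold change over the square root of F. Per the study's methods, an FZNF MO and a scrambled MO injection were done as a pair, 3 times. Deviations from the group means correlated within same-numbered pairs (r = 0.45, 0.33 and 0.24) and ranged from -0.32 to 0.06 between other libraries, so the number was used as a block. P-values set the difference against its spread over these 3 pairs of pooled embryos, which edgeR moderates with that of the other features tested. The SE follows from the same test, so it is not the plain spread of the 3 pair ratios. The fit was also run on simulated counts as a check of the code. These were drawn with no effect of the pair, so they cannot show how far calls made with the block can be relied on.

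Paralog ratios used raw counts with a prior count of 0.5. The members and lists were chosen with earlier results of these data known. Named genes were all members, and genes taken from those called in each list and from its up to 4 of smallest unadjusted p. Not all of the latter are printed. For birc5b and ccna1, the 5 genes of highest Pearson r of log2 CPM (prior count 2) were also named. The gene ccne2 lay outside this choice and is given as the other cyclin E gene. Alternatives were no block, collection day as block, RLE factors, TMM factors from Ensembl genes alone, DESeq2 1.42.0, no count filter, at least 50 counts in 3 libraries, no fold threshold, other prior counts (2 and 5), leaving out each pair, and leaving out each library with no block.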

Additional observations from a re-analysis of the deposited data

Results flagged for a closer look

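For 4 genes the pairs collected on 12 May and the pair collected on 17 May lay on opposite sides of 0. The difference between the days was not tested, since 17 May has 1 pair. For birc5a the within-pair log2 ratios of FZNF MO over scrambled MO were -0.69 and -0.43 in pairs 1 and 2 and 0.020 in pair 3. For aurkb they were -0.33 and -0.17 in pairs 1 and 2 and 0.057 in pair 3. For ccna2 they were 0.95 and 0.33 in pairs 1 and 2 and -0.0017 in pair 3. For ccnb1 they were -0.017 and -0.19 in pairs 1 and 2 and 0.011 in pair 3. In each of the 4 genes pair 3 was within 0.06 of 0 on the log2 scale, and none of them was called over all pairs. The collection day and the pair cannot be told apart for pair 3.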

How the results depend on the processing

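The calls depended on the pairing. With no replicate block, 0 genes were called higher and 0 lower, in place of 1 and 4, and 1 of the other cell cycle genes was lower in place of 5. With the collection day as block, 0 were higher, 0 lower and 0 of the other cell cycle genes lower. TMM factors from Ensembl genes alone left 2 of the 4 lower and gave 2 higher and 3 lower among the other cell cycle genes. With no count filter 2 genes were called higher, and 5 higher and 9 lower among the others. DESeq2, run only with the pair as block and all libraries kept, called 4 of the others higher. Since no share of its calls over all genes is given here, a DESeq2 call where edgeR made none adds no support. With a pair or library left out, 0 to 2 were called higher and 0 to 4 lower, and 0 to 9 higher and 0 to 12 lower among the other cell cycle genes. The lowest counts of calls with the block kept came without pair 2 (0 higher, 0 lower), and without pair 1 there were 0 higher and 2 lower. Of the 9 genes, only ccnb1 changed direction: with the block its value ran from -0.092 without pair 3 to 0.0074 without pair 2, and it was 0.014 with no block and without FZNF MO replicate 3, and 0.045 with no block and without scrambled MO replicate 1. The causes were not tested, beyond the smaller number of libraries where some were left out. The directions of the 3 paralog ratios held under every alternative run, with means of -4.33 to -2.03 for survivin, 0.23 to 0.36 for cyclin A and 0.29 to 0.45 for cyclin B. Depth limits birc5b alone among the 9: it did not reach 50 counts in 3 libraries, so that filter gave no value for it.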

Other observations

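Among the other cell cycle genes tested, 7 were higher and 15 lower with groups that did not overlap, or 4.96% and 10.6%, beside 7.51% and 9.08% of all Ensembl genes. Of those, ccnd3 and plk1 were picked after their values were seen, and edgeR called neither. The G1 cyclin gene ccnd3 had 7.0, 4.06 and 8.41 CPM in FZNF MO replicates 1, 2 and 3, against 3.79, 3.20 and 2.58 CPM in scrambled MO replicates 1, 2 and 3 (log2 fold change 0.98, SE 0.35, edgeR adjusted p = 0.134). The mitotic kinase gene plk1 had 279, 269.8 and 265 CPM in FZNF MO replicates 1, 2 and 3, against 334, 335 and 295 CPM in scrambled MO replicates 1, 2 and 3 (log2 fold change -0.24, SE 0.10, edgeR adjusted p = 0.201).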
